A study of Homo sapiens with 4 samples.

Results

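The 58 genes described here lie on chromosome 5 and were taken by symbol from a fixed list, and all 58 were among the 16811 genes of the expression table. The list was divided into a proximal stretch of 21 genes, from *TRIP13* on the short arm (5p) to *PELO* just past the centromere on the long arm (5q), and a distal stretch of 37 genes, from *IPO11* to *SQSTM1* on 5q. In the libraries of edited cells the distal genes were on the whole higher than in wild-type cells and the proximal genes were on the whole lower. That difference is what led to the list, so it is given as a description and not as a test. MCF12A is a non-tumorigenic line of human mammary epithelial cells, although the labels also call the source a breast cancer cell line. The edited cells (labelled *C1orf132* KO) lack the p2 promoter of the long noncoding RNA *C1orf132*, which was cut out with CRISPR/Cas9 in sorted single cells that were grown into colonies. How many colonies the sequenced libraries came from is not given in the sources used here. Wild-type (WT) cells were unedited, and both groups had the same medium, which held serum of horse, EGF, insulin, cholera toxin and hydrocortisone. Poly(A)-selected RNA was sequenced from 2 biological replicates of each group. The level of *C1orf132* was not analysed here, and library groups rest on the labels.

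Chromosome 5 carries many genes that every dividing cell uses. Its short arm holds the F-box protein gene *SKP2*, the microRNA-processing nuclease gene *DROSHA* and the telomerase gene, and is often gained in carcinomas. Its long arm holds *APC*, *NPM1*, *CSNK1A1* and *RAD50*, and parts of it are lost in some myeloid diseases and in many basal-like breast cancers. Neighbouring genes mostly have promoters of their own and work in unrelated processes. DNA copy number was not analysed here.

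The deposited values are a normalized expression signal per gene, scaled for length and for library, and differ from read counts. Relative to edited replicate 1, which stands at 1.00, sequencing depth as read from the steps between low values was 1.12 for edited replicate 2, 0.930 for WT replicate 1 and 1.00 for WT replicate 2. From these steps and the length of 1 canonical transcript per gene, the 58 genes had an estimated 349 (*MSH3*) to 123481 (*SKP1*) reads in a library. Transcripts of another length would give other numbers. Groups were compared with limma on log2(value + 1) over the 9590 genes whose mean value reached 10. Of these, 680 (7.09%) passed an adjusted p of 0.05, 277 (2.89%) higher and 403 (4.2%) lower in edited cells. Nothing in the sources says that the replicates came from separate edits, so the p-values measure the spread between these libraries only. With 2 libraries in each group, an exact permutation test (two-sided) reaches 0.333 at the lowest.

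Markers of the labelled cell type were present. All 10 epithelial markers looked up were listed, with summed values of 5298 and 8011 after editing against 14117 and 23188 in WT cells. For 8 of the 10 both edited libraries were below both WT libraries, and 2 overlapped, *KRT18* (266 and 296 against 275 and 82.2) and *ITGB4* (294 and 1277 against 1378 and 660). *KRT5* ranged from 3056 to 11914 over the 4 libraries, while *CDH1* was at 3.89 and 1.54 after editing against 150 and 123 in WT cells. Of 11 markers of blood cells, endothelium, adipocytes, fibroblasts and smooth muscle, 2 were among the listed genes. *DCN* was at 15.1 and 105 after editing against 7.42 and 1.09 in WT cells, and *COL1A1* at 3.19 and 5.58 against 15.6 and 28.1. These levels moved with the groups, and their part in the values below was not tested.

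The medians of the listed proximal and the listed distal genes lay on opposite sides of the median of all tested genes. The proximal genes were divided among themselves, as described below. For the 36 tested distal genes the median log2 fold change was 0.62. Over all tested genes it was 0.09, so the distal genes stood 0.53 higher (1.45-fold). The median of the 21 proximal genes stood at -0.23 from that of all tested genes (0.851 times). Distances from the median of all tested genes are called shifts from here on. *APC*, the scaffold of the beta-catenin destruction complex, had a mean value under 10 and was left out of this comparison (log2 fold change 0.33 with a standard error of 0.35 among all 16811 genes). Of the distal genes, 31 of 36 exceeded the all-gene median, and of the proximal genes 7 of 21. By construction as many of all tested genes lie above it as below.

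The libraries of the groups stood apart in this respect. The mean log2(value + 1) of the distal genes exceeded that of the proximal genes by 1.36 in edited replicate 1 and by 1.31 in edited replicate 2. In wild-type replicates 1 and 2 it exceeded it by 0.55 and 0.56. The edited and the wild-type libraries did not overlap in this difference. The genes were listed from this contrast, so neither that separation nor the counts at the end of this paragraph are support for it. Between replicates of a group the distal median moved less than between the groups, whereas the proximal median moved more between the edited replicates (-0.16) than between edited replicate 1 and the WT mean (-0.12). Edited replicate 2 less edited replicate 1 gave a shift of -0.15 for the distal and -0.16 for the proximal genes, and wild-type replicate 2 less wild-type replicate 1 gave 0.03 and -0.01. Set against the WT mean, the distal shift of edited replicate 1 was 0.62 and that of edited replicate 2 was 0.48. The proximal shift was -0.12 and -0.33, so it depended more on which edited library was used, and it was -0.13 without wild-type replicate 2. Both edited libraries were above both wild-type libraries for 26 of 36 distal and 6 of 21 proximal genes, against 38.3% of all tested genes. Both were below for 1 distal and 10 proximal genes, against 26.9%.

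**Figure D1:**
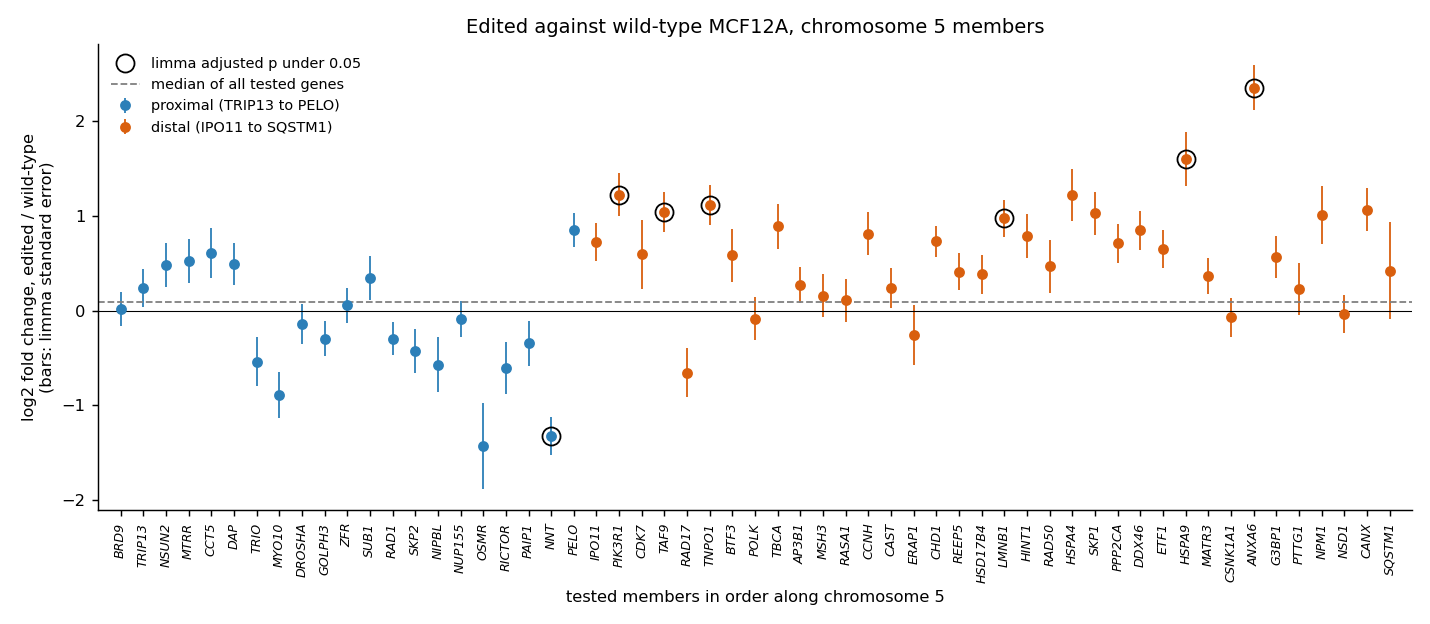
Log2 fold change of edited over wild-type cells (y axis, bars are limma's standard error) for the 57 tested genes in their order along chromosome 5 (x axis). The 14 genes from *TRIO* to *NNT* lie mostly below the dashed median of all tested genes (13 of 14), 31 of 36 distal genes lie above it, and circles mark the 7 genes past an adjusted p of 0.05.

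**Figure D2:**
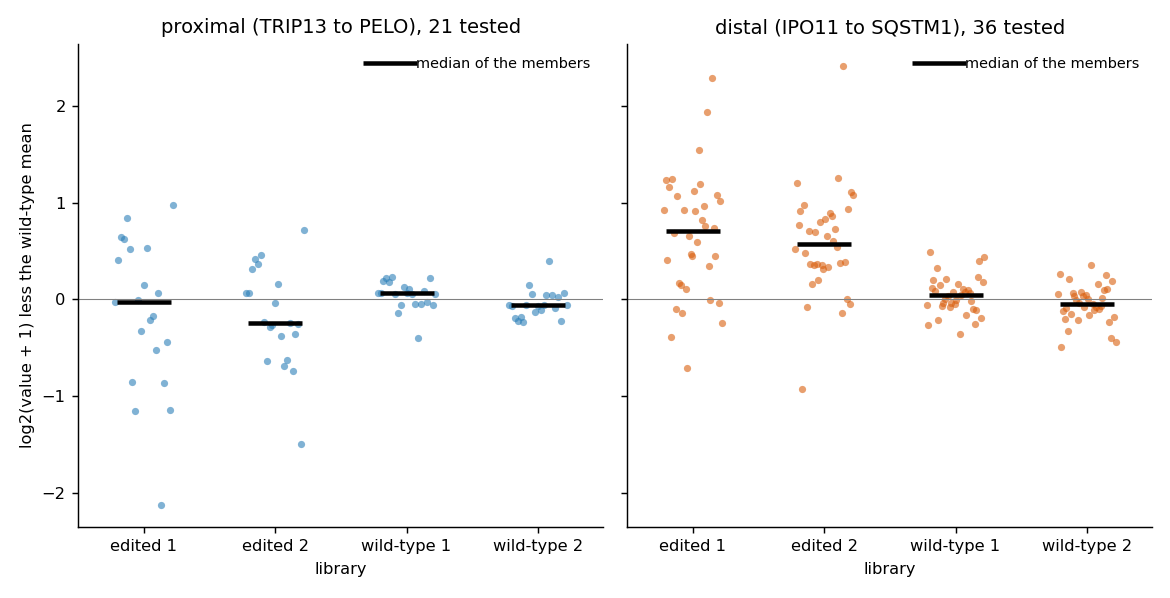
Each point is the log2(value + 1) of a tested gene in a library less its wild-type mean (y axis), in the 4 libraries (x axis, points spread sideways for sight only), with black bars at the medians. Most distal genes sit above 0 in both edited libraries, while the proximal genes spread to both sides.

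These genes were expressed at higher levels than most. Their median value in wild-type cells was 126 in the distal and 78.8 in the proximal stretch, against 39.9 over all tested genes. Higher expressed genes as a whole were somewhat higher in edited cells. Among the 4192 genes whose mean value reached 50, the median log2 fold change was 0.18. Relative to that median the shifts were 0.53 for the distal and -0.24 for the proximal genes that reached this mean. Listed genes below it, such as *RAD17* and *PIK3R1*, did not enter these shifts.

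The boundary between the stretches was drawn at *IPO11*, which encodes an import receptor of the nucleus. *PELO*, the last gene before it, encodes a factor that rescues stalled ribosomes. *PELO* was at 54.4 and 45.5 (replicates 1 and 2) after editing against 28.4 and 26.1 in WT cells (log2 fold change 0.85, standard error 0.18). *IPO11* was at 56.9 and 42.9 after editing against 28.3 and 30.9 in WT cells (log2 fold change 0.72, standard error 0.20). Both genes, just outside and just inside the distal stretch, were higher in both edited libraries, as were 38.3% of all tested genes. The span of *PELO* overlaps *ITGA1*, whose log2 fold change was 0.71. *NNT*, the listed gene before *PELO*, was lower in both edited libraries. Counted with the distal stretch, *PELO* moved the proximal shift to -0.31 and the difference between the medians of the stretches from 0.76 to 0.87, an alternative chosen after its value was seen. The promoter windows of the 2 boundary genes are shown because the division runs between them. They cover 250 bases before to 50 after the start in RefSeq (GRCh38.p14), chr5:52787666-52787965 and chr5:62412513-62412812, both on the plus strand, and capitals mark matches to the motifs named in the last paragraph.
PELO: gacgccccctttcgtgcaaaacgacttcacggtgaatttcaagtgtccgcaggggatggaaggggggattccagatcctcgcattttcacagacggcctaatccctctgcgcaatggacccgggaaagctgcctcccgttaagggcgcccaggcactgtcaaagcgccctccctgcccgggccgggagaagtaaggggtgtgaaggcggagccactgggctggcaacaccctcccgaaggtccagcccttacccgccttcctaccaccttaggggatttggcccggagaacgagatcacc
IPO11: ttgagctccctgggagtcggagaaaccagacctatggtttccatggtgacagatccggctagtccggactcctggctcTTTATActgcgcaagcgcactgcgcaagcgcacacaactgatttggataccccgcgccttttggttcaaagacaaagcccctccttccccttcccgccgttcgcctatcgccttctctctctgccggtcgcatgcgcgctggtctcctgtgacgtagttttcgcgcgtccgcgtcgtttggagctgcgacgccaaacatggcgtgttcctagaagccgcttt
The window of *IPO11* held 28 CpG dinucleotides and that of *PELO* 19, and neither held a GC box.

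The other tested genes of chromosome 5 changed side past *NNT*, before the boundary drawn at *IPO11*. RefSeq positions placed 417 tested genes on the chromosome, of which 360 are not on the list. From *IPO11* on, 287 other genes had a median shift of 0.31, and 211 of them exceeded the all-gene median. Before *IPO11*, 73 other genes had a median shift of -0.07, with 33 above, and were unlike along the way. The 28 from *TRIO* to *NNT* had a median shift of -0.42, with 5 above, and the 24 between *NNT* and *IPO11* had a median shift of 0.30, with 17 above. Before *TRIO*, the 21 other genes had a median shift of 0.01. In windows of 10 Mb, the median shift of all tested genes was 0.02 from 0 to 10 Mb, -0.51 from 10 to 20 Mb, -0.34 from 30 to 40 Mb and -0.45 from 40 to 50 Mb. It was 0.34 from 50 to 60 Mb and 0.60 from 60 to 70 Mb, the highest of the windows, and stayed between 0.14 and 0.47 in each window from 70 to 190 Mb. The distal genes of the list thus had a higher median shift than the other genes of their stretch, 0.53 against 0.31. No test was made of these differences, since the stretches were chosen on the same comparison.

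**Figure D3:**
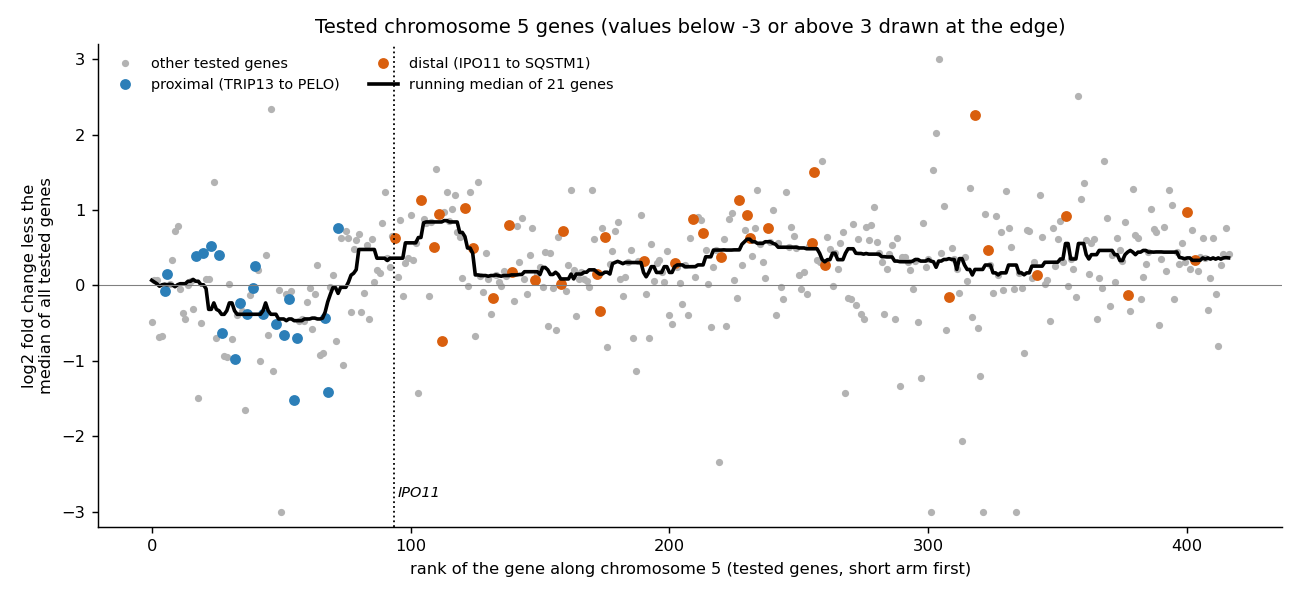
Shift of each tested chromosome 5 gene (y axis, log2 fold change less the median of all tested genes) by its rank along the chromosome (x axis), with the listed genes in colour and a running median of 21 genes in black. The running median is below 0 at *TRIO* and *NNT* and above 0 at the dotted line at *IPO11*.

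Among the 57 tested genes 7 passed the threshold of 0.05, at adjusted p from 0.0110 to 0.0478 (limma). These were 6 of 36 distal genes higher, against 2.89% of all tested genes, and 1 of 21 proximal genes lower, against 4.2%. Because the genes were listed from this comparison, nothing is read from these shares. The calls leaned on single libraries. None of the 57 genes passed without wild-type replicate 1 or without wild-type replicate 2, where 47 and 4 of all tested genes passed, with 2639 and 1604 at an unadjusted p under 0.05. At that unadjusted level were 24 of the listed genes without WT replicate 1 and 17 without WT replicate 2. The 47 and 4 genes past the adjusted threshold in these fits were 0.49% and 0.0417% of all tested genes. Without edited replicate 1, 1 distal gene was called higher and 1 proximal gene lower, and 424 (4.42%) of all tested genes passed. Without edited replicate 2, 9 distal genes and 1 proximal gene were called higher and 3 proximal genes lower, and 1431 (14.9%) of all tested genes passed, 7.11% higher and 7.81% lower. With the replicate number as a block, 1 distal gene was called, against 1.39% of all tested genes. At an adjusted p of 0.001 none of the 57 genes passed, against 0.0104% of all tested genes (limma), which is 1 gene.

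*ANXA6* stood farthest from the other distal genes. It encodes annexin A6, which binds membranes in the presence of calcium. Its value was 280 and 306 (replicates 1 and 2) after editing against 47.5 and 67.5 in WT cells, and the groups lay far apart. It rose 5.10-fold in the ratio of means (log2 fold change 2.35, standard error 0.24), and the log2 fold change was 2.10 to 2.60 when single libraries were left out. The next largest rise was that of *HSPA9*, which encodes the mitochondrial HSP70 chaperone mortalin. It was at 1636 and 1021 after editing against 446 and 409 in WT cells (log2 fold change 1.60, standard error 0.28). Edited replicate 1 was the highest, and the lower edited library of *HSPA9* still stood above both wild-type libraries. Both edited libraries were above both wild-type libraries in 38.3% of all tested genes. Of 16 alternatives, *ANXA6* lost its call in 3 and *HSPA9* in 5.

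The other distal genes past the threshold encode proteins of signalling, nuclear import, transcription and the nuclear envelope. *PIK3R1*, the regulatory subunit p85 alpha of PI3K, was at 50.5 and 49.4 after editing against 17.2 and 25.1 in WT cells (log2 fold change 1.22, standard error 0.22). *TNPO1*, the import receptor transportin, was at 309 and 255 against 137 and 122 (log2 fold change 1.11, standard error 0.21). *LMNB1*, lamin B1, was at 161 and 131 against 73.1 and 73.9 (log2 fold change 0.97, standard error 0.20). In each of these genes the lower edited library lay above the higher wild-type library, as in 38.3% of all tested genes. Of 16 alternatives, *LMNB1* lost its call in 11 and *TNPO1* in 6, and *PIK3R1* lost it in 8 of 15.

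*TAF9* and *RAD17* start from the same place and differed in opposite directions. *TAF9* encodes a subunit of the general transcription factor TFIID, and *RAD17* the loader of the checkpoint clamp that marks damaged DNA. *TAF9* rose from 82.3 and 69.2 in the wild-type to 170 and 143 in the edited libraries (log2 fold change 1.04, standard error 0.21), and lost its call in 7 of 16 alternatives. *RAD17* was at 29.6 and 20.0 after editing against 45.1 and 33.7 in WT cells (log2 fold change -0.66, standard error 0.26) and did not pass the threshold. It was the only tested distal gene with both edited libraries below both wild-type libraries, against 26.9% of all tested genes. *RAD17* lay more than 1 below the median of its stretch. In RefSeq (GRCh38.p14) *RAD17* starts at 69369818 on the plus strand and *TAF9* at 69369824 on the minus strand, so their promoter windows (chr5:69369568-69369867 and chr5:69369775-69370074) overlap and are shown for that reason.
RAD17: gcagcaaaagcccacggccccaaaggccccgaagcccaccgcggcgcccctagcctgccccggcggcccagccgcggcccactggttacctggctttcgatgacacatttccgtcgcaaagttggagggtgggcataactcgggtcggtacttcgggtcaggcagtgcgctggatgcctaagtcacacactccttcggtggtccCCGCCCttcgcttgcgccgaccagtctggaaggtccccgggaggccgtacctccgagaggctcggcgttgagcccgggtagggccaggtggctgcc
TAF9: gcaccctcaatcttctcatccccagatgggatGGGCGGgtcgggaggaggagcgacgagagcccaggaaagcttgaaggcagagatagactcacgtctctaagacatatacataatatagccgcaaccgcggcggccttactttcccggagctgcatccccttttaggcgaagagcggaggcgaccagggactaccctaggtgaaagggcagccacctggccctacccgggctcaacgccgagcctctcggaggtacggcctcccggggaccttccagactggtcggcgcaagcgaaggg
Each window held 1 GC box, the only motif found in either. *TAF9* shares its span with *AK6*, an adenylate kinase gene that was at 123 and 93.1 after editing against 52.2 and 21.7 in WT cells (log2 fold change 1.63). Reads of such overlapping genes may be divided differently by other counting methods. How strand was used is not given in the sources used here.

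The listed genes of the proximal stretch were themselves divided. The 6 genes from *TRIP13* to *DAP*, nearest to the end of the short arm, had a median shift of 0.40 and 5 of them exceeded the all-gene median. The 14 genes from *TRIO* to *NNT* had a median shift of -0.47 and 13 of them lay below it. The split was made after the values were seen. The 21 other tested genes before *TRIO* had a median shift of 0.01, with 11 above, so the rise there was that of the listed genes. Of the 6 genes from *TRIP13* to *DAP*, *CCT5*, a subunit of the TRiC chaperonin, was at 1155 and 832 after editing against 729 and 569 in WT cells. *NSUN2*, an RNA methyltransferase, was at 122 and 97.4 against 89.3 and 68.4, and *MTRR*, methionine synthase reductase, at 133 and 115 against 101 and 73.4. *DAP*, a regulator of autophagy, was at 86.7 and 82.8 against 70.8 and 50.8. All 4 had both edited libraries above both wild-type libraries, as had 38.3% of all tested genes. *TRIP13* and *BRD9*, which start 334 bp apart on opposite strands, overlapped between the groups. Their log2 fold changes were 0.24 and 0.02, the latter of either sign across alternatives.

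*NNT* was the proximal gene past the threshold. It encodes the nicotinamide nucleotide transhydrogenase of the mitochondrial inner membrane. Its value was 43.1 and 33.6 after editing against 92.4 and 101 in WT cells. Both edited libraries were below both wild-type libraries, as in 26.9% of all tested genes. The value fell by 1.32 on the log2 scale (standard error 0.20), to 0.397 times the wild-type mean. *NNT* lost its call in 4 of 16 alternatives. *OSMR*, a receptor chain for oncostatin M, had a larger difference and a wide spread. It was at 32.9 and 87.6 (replicates 1 and 2) after editing against 156 and 138 in WT cells (log2 fold change -1.43, standard error 0.45). The edited libraries differed from each other more than the wild-type ones did, and leaving out edited replicate 1 gave a log2 fold change of -0.74, and leaving out edited replicate 2 gave -2.12. *OSMR* and *NNT* were the 2 proximal genes more than 1 from the median of their stretch. *OSMR* overlaps *RICTOR* (6.49 and 9.71 against 12.4 and 12.9), and the fit gave *RICTOR* a log2 fold change of -0.61.

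Among the remaining proximal genes, *MYO10*, *RICTOR*, *NIPBL* and *TRIO* had the lowest fold changes (-0.89, -0.61, -0.57 and -0.54 on the log2 scale). *MYO10*, a myosin of filopodia, was at 17.5 and 25.5 after editing against 36.1 and 44.4 in WT cells. *TRIO*, an exchange factor for RAC1 and RHOA, was at 92.7 and 143 against 174 and 161. In both genes edited replicate 1 was the lowest library. Both edited libraries were below both wild-type libraries in each, as in 26.9% of all tested genes. The cohesin loader gene *NIPBL* was at 55.3 and 51.4 against 60.1 and 105, so its difference rested largely on wild-type replicate 2. The *SKP2* gene was at 79.2 and 55.1 against 86.3 and 92.2. *DROSHA*, *ZFR* and *NUP155* overlapped between the groups, with log2 fold changes from -0.15 to 0.05, and the sign of *ZFR* and *NUP155* changed in some alternatives.

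By function, chaperones and the genes of nuclear transport and the nuclear interior, taken as 1 group, had the highest median shifts of the distal stretch. The 4 chaperone genes had shifts from 0.80 (*TBCA*, a tubulin folding cofactor) to 1.51 (*HSPA9*), and *HSPA4* and *CANX* lay between them. *HSPA4* was at 428 and 271 after editing against 151 and 141 in WT cells, and *CANX*, the lectin chaperone calnexin, at 1153 and 1231 against 646 and 501. All 4 had both edited libraries above both wild-type libraries, as had 38.3% of all tested genes and 26 of 36 distal genes, and 1 of 4 passed the threshold, against 2.89% of all tested genes called higher. The 4 genes of nuclear transport and the nuclear interior (*IPO11*, *TNPO1*, *LMNB1* and *NPM1*) had shifts from 0.63 to 1.02, and 2 of 4 passed. *NPM1*, nucleophosmin, had the highest values of the list at 5365 and 4827 against 3325 and 1924.

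The distal genes of genome maintenance and cell division had the lowest median shift of the groups. Their 5 tested members had a median shift of 0.07, and none passed the threshold. *MSH3*, a mismatch repair gene, was at 11.1 and 11.2 after editing against 9.62 and 10.2 in WT cells, and *POLK*, a translesion polymerase gene, at 14.5 and 14.7 against 13.3 and 18.2. *RAD50* was at 73.1 and 60.8 against 37.3 and 61.7, so wild-type replicate 2 lay within the range of the edited libraries. *PTTG1*, the securin gene, overlapped as well (401 and 294 against 344 and 250). The genes of chromatin and transcription had a median shift of 0.64, with 4 of 5 above the median of all tested genes. In that group *CHD1*, a chromatin remodeller gene, was at 50.7 and 56.1 against 31.0 and 32.6, and *NSD1*, a histone H3 methyltransferase gene, at 23.8 and 23.7 against 21.2 and 28.1.

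The 5 translation and RNA processing genes of the distal stretch had both edited libraries above both WT libraries, as had 26 of 36 distal genes and 38.3% of all tested genes. *ETF1*, the release factor gene, was at 185 and 159 after editing against 117 and 102 in WT cells, and *BTF3*, part of the nascent polypeptide-associated complex, at 2136 and 1861 against 1664 and 1065. *DDX46*, *MATR3* and *G3BP1* had shifts from 0.27 to 0.76. None of these 5 genes passed the threshold. The protein turnover genes were mixed. *SKP1*, the adaptor of SCF ubiquitin ligases, was at 1499 and 1195 against 709 and 608, *ERAP1* at 30.1 and 57.4 against 47.1 and 52.8, and *SQSTM1* at 386 and 966 against 619 and 336. *SQSTM1* had the largest standard error on the list (0.51), and its highest and lowest edited values enclosed one of the WT values. *CSNK1A1*, casein kinase 1 alpha, was at 313 and 285 against 293 and 337, and the groups overlapped.

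Many of these proteins work in complexes whose other subunits are encoded elsewhere in the genome, so 39 partner genes were looked up. None of the 39 passed the threshold in limma, and 17 had an unadjusted p under 0.05 (32.3% of all tested genes did). Their median shift was 0.30, with 26 of 39 above the median of all tested genes. The 287 other genes of chromosome 5 from *IPO11* on had 0.31, with 211 above. A median shift of that size was thus not particular to the distal stretch. In the CDK-activating kinase, *CDK7* and *CCNH* from the distal stretch had log2 fold changes of 0.59 and 0.81, and *MNAT1* on chromosome 14 had -0.53. *CDK7* was at 171 and 220 after editing against 181 and 90.7 in WT cells, which overlapped, whereas *CCNH* was at 145 and 123 against 88.0 and 65.3. *CCNH* overlaps *RASA1* (0.11) over 80446 bp. In the SCF ligase the distal *SKP1* had a log2 fold change of 1.03 and the proximal *SKP2* -0.43, beside -0.01 for *CUL1*, 0.53 for *RBX1* and -0.12 for *CKS1B*.

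The TRiC chaperonin showed partners as high as the listed gene. *CCT5* had a log2 fold change of 0.61, and its 7 partners on 6 other chromosomes had values from 0.54 (*CCT4*) to 1.08 (*CCT2*). The checkpoint clamp had lower log2 fold changes, with *RAD1* at -0.30, its loader *RAD17* at -0.66, *RAD9A* at -0.65 and *HUS1* at 0.01. For PI3K, *PIK3R1* rose (1.22) while the catalytic subunit genes *PIK3CA* and *PIK3CB* had -0.31 and -0.57, and the other regulatory subunit gene *PIK3R2* 0.63. For mTORC2, the proximal *RICTOR* had -0.61, while *MTOR*, *MLST8* and *MAPKAP1* had 0.55, 0.85 and 0.15. For PP2A, the catalytic subunit gene *PPP2CA* had 0.71, with 0.67 for the scaffold *PPP2R1A* and -0.03 for the second catalytic gene *PPP2CB*. For MRN, *RAD50* had 0.47, *NBN* 0.59 and *MRE11* -0.20.

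**Figure D4:**
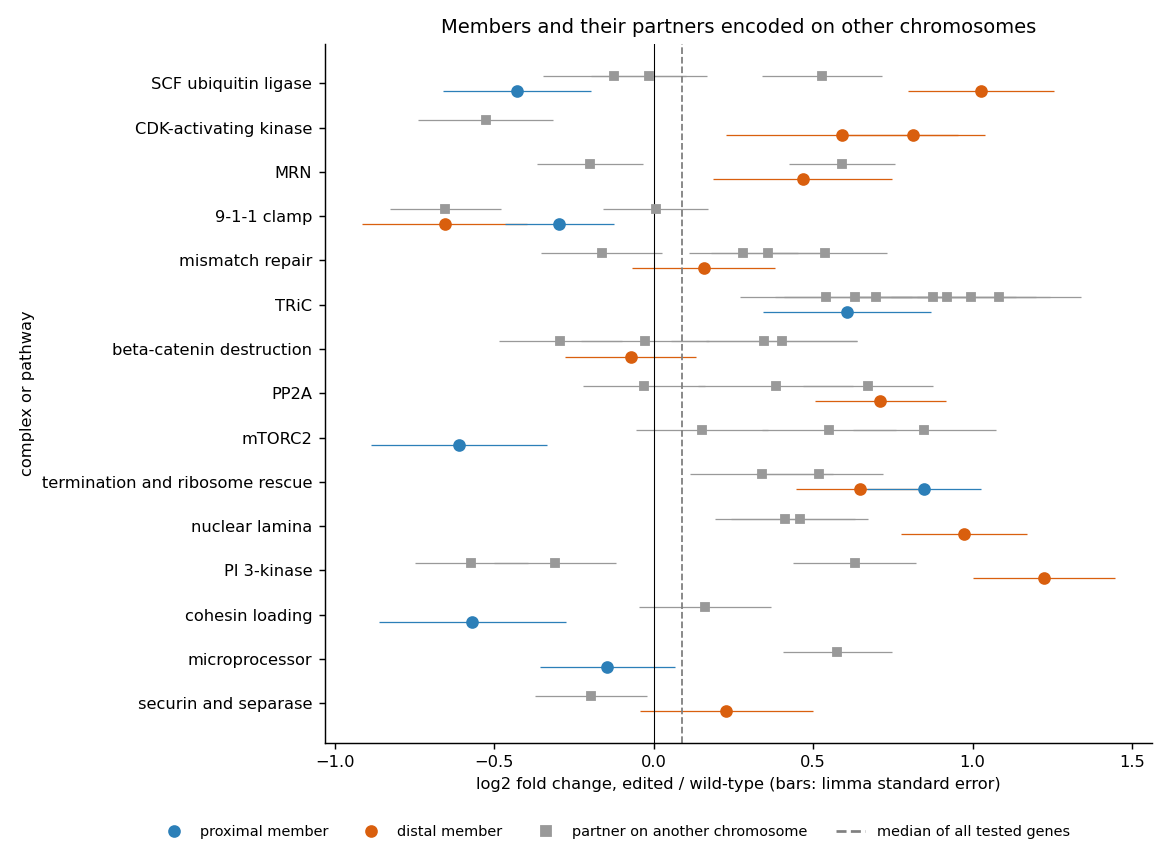
Log2 fold change of edited over wild-type cells (x axis, bars are limma's standard error) for listed genes (circles) and their partners on other chromosomes (grey squares), by complex (y axis). Listed genes and partners lie together for TRiC, while the distal *SKP1*, *CCNH* and *PIK3R1* lie above most of their partners and the proximal *RICTOR* lies below its partners.

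Features that the list did not use were compared as well. The proximal and distal genes' canonical transcripts had median lengths of 4371 and 4443 bases, against 3080 over all tested genes, and median GC contents of 44.5% and 41.2%, against 48.7%. With the trend in GC content and length removed, the distal shift was 0.59 and the proximal shift -0.15, and 11 distal genes were called higher. In that fit 925 (10.4%) of all 8917 genes with a known length and GC content passed, 3.71% higher, so calls were more frequent over all genes too. RefSeq promoter windows of 300 bases were matched for 17 proximal and 36 distal genes. Their median GC content was 67.0% and 66.0%, against 58.3% over 27305 promoters, with 29 and 27 CpG dinucleotides against 14. These 27305 promoters were not limited to the tested genes, so differences from them may be those of expressed genes in general, which was not tested. A GC box (GGGCGG or its complement CCGCCC) was in 12 of 17 proximal and 27 of 36 distal windows, against 44.6% of all. A TATA box (TATAAA or TTTATA) was in 0 of 17 and 3 of 36, against 12.0%, a CCAAT box (CCAAT or ATTGG) in 3 and 9, against 35.7%, and the E-box CACGTG in 0 and 5, against 7.43%. The promoters of *ANXA6* (chr5:151157730-151158029, minus strand) and *NNT* (chr5:43602425-43602724, plus strand), the largest rise and the fall among the genes past the threshold, are shown with these motifs in capitals.
ANXA6: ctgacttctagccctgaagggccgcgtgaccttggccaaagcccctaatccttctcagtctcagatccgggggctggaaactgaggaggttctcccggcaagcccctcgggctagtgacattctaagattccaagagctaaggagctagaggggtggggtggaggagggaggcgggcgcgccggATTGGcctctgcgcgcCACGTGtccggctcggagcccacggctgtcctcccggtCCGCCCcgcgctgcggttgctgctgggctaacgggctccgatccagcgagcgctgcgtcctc
NNT: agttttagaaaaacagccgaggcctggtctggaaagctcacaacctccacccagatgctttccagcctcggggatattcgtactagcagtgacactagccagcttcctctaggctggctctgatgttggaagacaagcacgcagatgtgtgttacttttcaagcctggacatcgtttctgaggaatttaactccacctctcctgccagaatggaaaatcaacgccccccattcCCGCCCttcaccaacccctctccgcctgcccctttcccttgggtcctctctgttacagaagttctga
The window of *ANXA6* held 25 CpG dinucleotides with 1 GC box, 1 CCAAT box and 1 E-box, and that of *NNT* held 8 CpG dinucleotides and 1 GC box. Such matches are descriptions of the sequence and say nothing of which factors bind.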

How the data were processed

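RNA-seq was analysed from 2 libraries of edited and 2 of wild-type MCF12A cells (TruSeq RNA kit, poly(A) selection, single-end reads of 75 bases). Per the labels, Salmon and HISAT2 and the build hg38 were used, with no versions or roles. The authors deposited 1 normalized signal value per gene and library. The annotation and the normalization are not given in the sources used here. Values are scaled for length: among 456 low genes with a single transcript, 53 were whole multiples (up to 30, within 0.004) of a step in all libraries, and the step fell with length (slope -0.98 on log2 scales). For most genes whole reads could not be derived, so no count test was used, and read numbers are estimates.

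limma 3.58.1 in R 4.3.3 (lmFit, eBayes with trend) was run on log2(value + 1) for 9590 genes with a mean of at least 10, with Benjamini-Hochberg adjustment over all of them and a threshold of 0.05. It was tested on simulated data. On this scale the fold change of a low gene is understated. The study names Student's test, run in GraphPad Prism, for expression differences in general, without saying which test the RNA-seq had. Its RNA-seq threshold, an adjusted p of 0.001, is an alternative here. RefSeq positions (GRCh38.p14) were matched by symbol for 12496 genes and by synonym for 799. Transcript length and GC content came from GENCODE version 44 (92.98% of tested genes). The genes and lists were chosen with earlier results of these data known. All 58 genes may be named, and those given in full are the ones past the threshold, those at least 1 (log2) from the median of their stretch, and *PELO* and *IPO11*. The neighbouring, overlapping and partner genes are named beside their member, and *KRT5*, *KRT18*, *ITGB4*, *CDH1*, *DCN* and *COL1A1* from the marker list. Python 3.11.15, numpy 2.4.6 and pandas 2.3.3 were used.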

Additional observations from a re-analysis of the deposited data

How the results depend on the processing

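The crossed pairing, the exclusion of overlapping genes and the move of *PELO* are alternatives that were added once the data had been seen. The crossed pairing cannot change a shift. Under the others the distal shift stayed positive and the proximal shift negative. Another filter, a replicate block or no variance trend leaves a gene's log2 fold change as it is, so its sign could not change there. Of the 57 tested genes, 46 kept their sign in each fit they entered. The other 11 changed it in at least 1 of up to 15 fits: *BRD9* in 6, *ZFR* in 5, *PTTG1* in 3, *NUP155*, *POLK*, *RASA1*, *NSD1* and *SQSTM1* in 2 each, and *ERAP1*, *CAST* and *CSNK1A1* in 1 each. Leaving out 1 library at a time, the proximal shift ranged from -0.33 to -0.12, the distal shift from 0.48 to 0.62 and their difference from 0.69 to 0.86. The distal genes called higher ranged from 0 to 9, the proximal genes called lower from 0 to 3 and called higher from 0 to 1. The proximal shift was -0.16 with no filter, -0.35 with quantile normalization, -0.36 with cyclic loess and -0.15 with the trend in GC content and length removed. The distal shift was 0.44 with quantile normalization and 0.39 with cyclic loess. Without the 20 genes whose span overlaps another gene of the table, the distal shift was 0.67 and the difference 0.85. With *PELO* counted as distal the proximal shift was -0.31 and the difference 0.87. Distal genes called higher were 3 with no filter (1.33% of all 16811 genes were called higher) and 11 with the GC and length trend removed (3.71% of 8917), where 1 proximal gene was called higher. At an adjusted p of 0.001, 0 distal and 0 proximal genes were called, as against 1 of all tested genes. With the replicate number as a block, 1 distal gene was called higher and 0 proximal genes lower, and 133 (1.39%) of all tested genes passed. The deviations of same-numbered libraries correlated at -0.14 across genes. This single value, from 2 libraries in each group, cannot show whether the replicate numbers pair the libraries. With crossed pairs as a block, 4 distal genes and 1 proximal gene were called higher and 2 proximal genes lower, and 1002 of all tested genes passed. The all-gene median log2 fold change, 0.09 as deposited, was -0.03 with equal library totals and -0.01 with cyclic loess. The lowest estimated read number of a listed gene in a library was 349.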
